A study of Mus musculus with 123 samples.

Results

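Growth cone proteins here are 10 genes of axon outgrowth, Gap43, Sprr1a, Basp1, Stmn2, Stmn4, Marcks, Marcksl1, Dpysl2, Dpysl3 and Cttn. They were chosen by name from the 24134 genes of the tables, with earlier results of these data known, and all 10 had a row. They were measured in sensory neurons of the mouse dorsal root ganglion (DRG) after sciatic nerve transection (SNT), in which the right nerve was cut and the ganglia of the uncut side of the same mice served as the control side. At day 3 the mice were F1 offspring of CAST/EiJ males and C57BL/6 females, with 41 SNT-side and 18 control-side neurons kept and 3 libraries of pooled neurons per side. No label gives the sex of the day 3 libraries, and the study's methods describe the F1 mice as female. At day 7 the mice were C57BL/6 of both sexes, with 33 SNT-side and 14 control-side neurons. All mice were 2 months old, and no genotype or drug differed between sides. Strain and read length (50 bases at day 3, 75 at day 7) changed with the day, as did the mix of sexes by the study's methods. Day, strain, mix of sexes and read length thus cannot be told apart. The SNT side also holds neurons whose axons do not run in the sciatic nerve.

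The 3 pooled libraries of a side were parts of 1 lysate, so p-values measure technical spread. No label ties a single neuron to an animal, so each side and day is 1 sample and the cells carry no test. The headers of the pooled columns contradict each other, since their names and the sample identifiers printed under the names give each column to opposite sides, and all 6 carry a source label of intact tissue. The names were followed, and the other reading would turn the sign of every pooled difference below. Atf3, a transcription factor that marks axotomized neurons, had 1372 to 1619 CPM (counts scaled to a library total of 1000000) in the pooled libraries named SNT and 8.25 to 21.5 CPM in those named control. Library totals ran from 261351 to 1849130 counts in kept cells and from 563462 to 2003817 in pooled libraries. Summed neuronal markers were 6730 to 18039 CPM in every kept cell. In pooled libraries they were 8516 to 9816 CPM on the control side and 14099 to 15899 CPM on the SNT side. The part of this neuronal difference in the pooled results was not tested. Summed glial markers were 12658 to 15348 CPM in pooled control libraries and 6204 to 7006 CPM in pooled SNT libraries, with all 10 glial markers detected on both sides, and their part in the pooled results was not tested. In pooled neurons fewer cells of a type and less RNA per cell cannot be told apart.

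A growth cone is the motile tip of an extending axon, where a mesh of actin at the edge meets microtubules that enter from the shaft. GAP43, BASP1, MARCKS and MARCKSL1 are acidic proteins of the inner membrane face that bind phospholipids and regulate cortical actin. Stathmins bind tubulin and destabilize microtubules, the CRMPs encoded by Dpysl genes bind tubulin dimers, and cortactin binds branched actin. Sprr1a encodes a proline-rich protein of the epidermal envelope that neurons make after axotomy.

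In pooled neurons at day 3, 5 of the 10 genes were called higher on the SNT side, with a limit of 0.05 for the adjusted p and of 1 for the size of the log2 change, and 0 were called lower. Over all 13509 genes tested, 15.9% were called in either direction and 8.83% were called higher. Since the 10 genes were chosen with earlier results of these data known, their share beside that of all genes is only a description. The median log2 change of the 10 genes was 0.77, beside 0.02 for all genes tested. With library size alone in place of TMM scaling, the median of all genes shifted to -0.14 and 43.6% of all calls were rises, beside 55.4%, and the same 5 of the 10 genes were called. The 5 were Sprr1a, Stmn4, Gap43, Stmn2 and Cttn, and in each of them the 3 SNT libraries lay above the 3 control libraries, which was true of 16.8% of all genes.

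**Figure D1:**
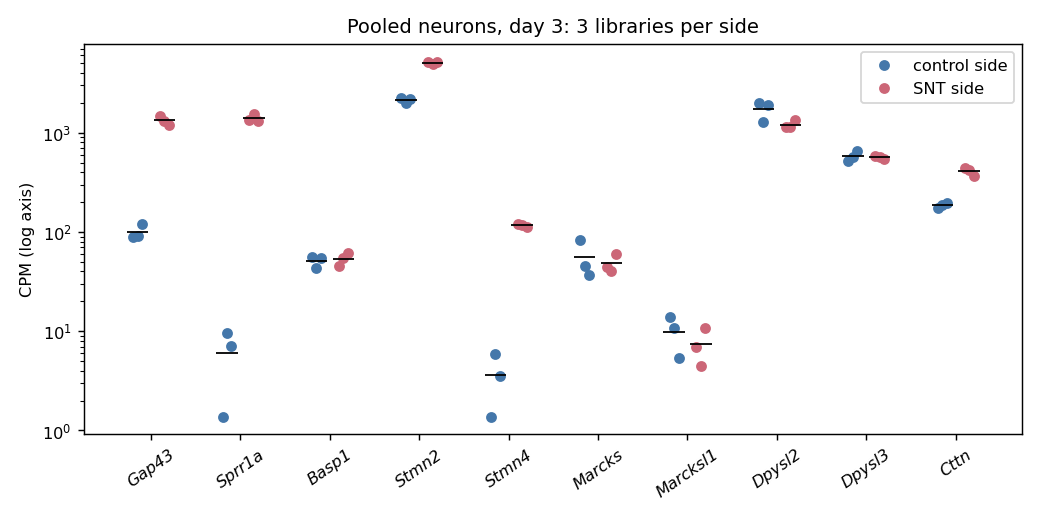
CPM on a log axis for the 10 genes in each of 3 pooled control libraries (blue) and 3 pooled SNT libraries (red), with bars at the means. Sprr1a moved from a mean of 6.00 to 1402 CPM, while the libraries of both sides overlapped for Basp1, Marcks, Marcksl1, Dpysl2 and Dpysl3.

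Sprr1a changed most. Its promoter is shown because the letters of an AP-1 motif, the site bound by Jun and Fos family proteins, stand in it. The window is the 250 bases before the RefSeq start of Sprr1a, at chr3:92485882-92486131 on the minus strand of GRCm38.p6, with the matches in capitals.
Sprr1a: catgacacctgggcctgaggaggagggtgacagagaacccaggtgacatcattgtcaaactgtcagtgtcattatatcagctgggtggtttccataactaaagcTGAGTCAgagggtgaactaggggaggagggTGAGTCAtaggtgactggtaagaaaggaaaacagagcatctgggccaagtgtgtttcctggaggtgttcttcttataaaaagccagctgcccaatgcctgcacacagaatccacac
The AP-1 motif TGANTCA, searched on both strands, occurred at -146 to -140 and at -116 to -110 from the start, and the ATF and CREB motif TGACGTCA did not occur. At least 1 TGANTCA occurred in 6.75% of 32851 mouse promoter windows of the same length and at least 2 in 0.338%. Of the 10 genes, 3 had a promoter in the RefSeq table used, and those of Basp1 and Marcksl1 held neither motif. A match of letters is no evidence that a factor bound there.

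Sprr1a counts were 1, 8 and 4 in the pooled control libraries (1.38 to 9.53 CPM) and 2186, 1561 and 3086 in the pooled SNT libraries (1307, 1358 and 1540 CPM). The groups did not overlap, and the log2 change was 7.98 ± 0.24 (SE, n = 3 and 3; edgeR quasi-likelihood test, adjusted p = 8.3e-27). In single neurons at day 3 it had a lowest value of 0, a median of 2.46 and a highest of 63.9 CPM in 18 control-side cells. On the SNT side it had a lowest value of 0, a median of 1970 and a highest of 13019 CPM, and 30 of 41 cells exceeded the whole control side. At day 7 only 3 of 14 control-side cells had a Sprr1a read, 5 reads in all, with a highest value of 2.78 CPM. Of 33 SNT-side cells 13 lay above that value, 16 had no read, and the highest reached 4867 CPM. At both days most SNT-side cells were either at control level or far above it, with few between. The log2 ratio of mean CPM + 1 was 7.57 at day 3 and 9.52 at day 7, the latter against those 5 reads, and fell to 1.13 at day 7 when medians replaced means. The 14 other Sprr genes of the table all stayed below a mean of 1 CPM in pooled neurons.

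Of the stathmins, Stmn4 had the larger change and Stmn2 the higher level. Stmn4 was at 1.38, 5.96 and 3.55 CPM in pooled control libraries, from 1, 5 and 2 counts, and at 112, 121 and 119 CPM in pooled SNT libraries. It rose by a log2 change of 5.08 ± 0.35 (edgeR, adjusted p = 6.3e-15), with a range of 4.68 to 5.75 when 1 library was left out and the highest value without pooled control library 2. At day 3 its median was 1.14 CPM (highest 29.97) in control-side cells and 115 CPM (highest 491) in SNT-side cells, and 33 of 41 SNT-side neurons exceeded the whole control side. At day 7 the medians were 0.716 and 11.7 CPM, and 16 of 33 SNT-side neurons passed the control-side maximum of 11.8 CPM. Stmn4 thus left the control range in more day 3 cells than any other of the 10 genes.

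Stmn2, also called SCG10, was already abundant without injury. Pooled control libraries had 2220, 1981 and 2176 CPM and pooled SNT libraries 5108, 5189 and 4971 CPM, a log2 change of 1.42 ± 0.10 (edgeR, adjusted p = 3.1e-14). In control-side cells it ran from 1746 to 3850 CPM at day 3 with a median of 2566. The SNT-side median was 4883 CPM, and 25 of 41 cells lay above the control range. At day 7, 12 of 33 SNT-side cells did so, and the lowest of these had 6498 CPM while the highest of the others had 4358 CPM. The day 7 medians were 3046 CPM on the control side and 3303 CPM on the SNT side, with lower quartiles of 2321 and 1896 CPM. The log2 ratio in cells was 0.85 at day 3 and 0.57 at day 7, short of 1 on both days.

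Gap43, a protein kinase C substrate and the classic marker of growing axons, had 89.2, 90.6 and 119 CPM in the pooled control libraries and 1195, 1472 and 1324 CPM in the pooled SNT libraries. The log2 change was 3.91 ± 0.15 (edgeR, adjusted p = 1.2e-22). In day 3 control-side cells it ran from 0 to 1370 CPM with a median of 80.8, and in SNT-side cells from 1.46 to 3294 CPM with a median of 1461. The sides overlapped widely, and 21 of 41 SNT-side neurons exceeded the whole control side. At day 7 the control-side median was 27.2 CPM (highest 977) and the SNT-side median 1061 CPM (highest 3382), with 20 of 33 SNT-side cells above. The log2 ratio was 1.96 at day 3 and 1.36 at day 7, beside control-side means of 379 and 364 CPM. Taken between medians it was 4.16 and 5.23.

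Basp1 and Marcks, membrane proteins of the same functional group as Gap43, did not pass the test in pooled neurons. Basp1 had 56.4, 42.9 and 55.1 CPM in control and 61.0, 45.3 and 54.5 CPM in SNT libraries, a log2 change of 0.23 ± 0.25 (edgeR, adjusted p = 0.55). Marcks had 83.9, 45.3 and 37.3 CPM in control and 60.4, 44.4 and 40.4 CPM in SNT libraries, a log2 change of -0.05 ± 0.27 (edgeR, adjusted p = 0.92). Both were higher in SNT-side cells at day 7. There the Basp1 median was 21.6 CPM (highest 76.6) on the control side and 66.3 CPM (highest 311) on the SNT side, a log2 ratio of 1.69, and 15 of 33 cells lay above the control range. The Marcks median was 12.4 CPM (highest 22.1) and 39.4 CPM (highest 223), a log2 ratio of 2.19, with 20 of 33 cells above. At day 3 the log2 ratios were 0.15 for Basp1, with 4 of 41 cells above, and 0.89 for Marcks, with 17 of 41 above. Whether the days differ was not tested. Day 3 cells that the authors removed as outliers had high glial marker sums. Their Marcks medians were 225 CPM on the control side and 374 CPM on the SNT side. In kept day 3 cells the medians were 40.1 and 80.1 CPM. The part of glial RNA in the pooled Marcks values was not tested.

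Marcksl1 was low and gave unlike values in pooled and single neurons. The pooled libraries held 10, 9 and 3 counts on the control side and 18, 8 and 9 on the SNT side, and the log2 change was -0.31 ± 0.57 (edgeR, adjusted p = 0.76). In day 3 cells the control-side median was 2.16 CPM (highest 14.6) and the SNT-side median 8.20 CPM (highest 205), with 16 of 41 cells above the control range and a log2 ratio of 2.73. At day 7 the log2 ratio was -0.16, with a range of -0.33 to 0.13 when 1 cell was left out, and 20 of 33 SNT-side cells had no read. Over control-side cells its log2 level ran with the glial marker sum, with a Pearson r of 0.88 at day 3 (n = 18) and 0.86 at day 7 (n = 14), and with r = 0.92 over the SNT-side cells of day 7 (n = 33). Over SNT-side cells of day 3 that r was -0.05 (n = 41). The median glial marker sum of kept day 7 cells was 5223 CPM on the control side and 1491 CPM on the SNT side. At day 3 the medians were 3777 and 3858 CPM. The part of glial RNA in the Marcksl1 values was not tested.

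Dpysl2 and Dpysl3, which encode CRMPs, were not called in pooled neurons, and neither had a log2 ratio above 1 in cells. Dpysl2, or CRMP2, had 2007, 1288 and 1899 CPM in pooled control libraries and 1340, 1141 and 1131 CPM in pooled SNT libraries, and its log2 change of -0.36 ± 0.13 had an adjusted p of 0.034 (edgeR) but stayed short of the fold limit. Its log2 ratio in cells was -0.04 at day 3 and -0.18 at day 7. Dpysl3, or CRMP4, had 516 to 648 CPM in pooled control and 537 to 584 CPM in pooled SNT libraries, a log2 change of 0.12 ± 0.13 (edgeR, adjusted p = 0.54) whose sign turned with library size alone (-0.04). No SNT-side cell of either day lay above the Dpysl3 control range, and 5 of 41 at day 3 lay below it.

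Cttn, which encodes cortactin, had 174, 187 and 197 CPM in pooled control and 367, 442 and 417 CPM in pooled SNT libraries, without overlap. The log2 change was 1.30 ± 0.15 (edgeR, adjusted p = 4.4e-09). At day 3 the control-side cells ran from 81.9 to 253 CPM (median 174) and the SNT-side cells from 122 to 702 CPM (median 383), with 31 of 41 above. At day 7 the medians were 172 and 184 CPM and 13 of 33 SNT-side cells lay above. Of the 50-base windows of its longest coding transcript, 3.52% also occurred in other annotated genes, more than for any other of the 10, so that its counts are the least certain in this respect.

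**Figure D2:**
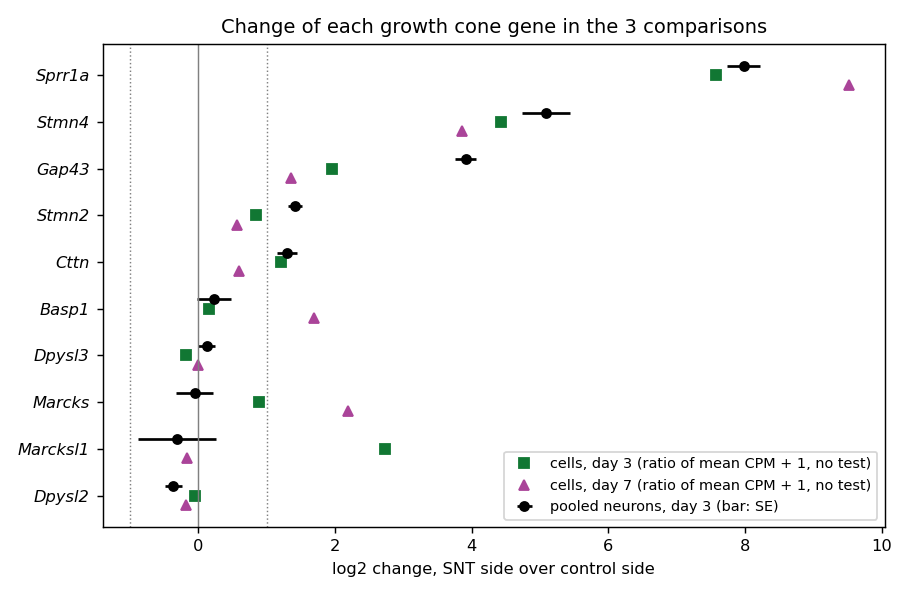
Log2 change of each gene, SNT side over control side, for pooled neurons of day 3 (circles, bars are SE), cells of day 3 (squares) and cells of day 7 (triangles), with dotted lines at the limits of 1 and -1. Sprr1a, Stmn4 and Gap43 lie above 1 in all 3 comparisons, Basp1 and Marcks only for day 7 cells, and Dpysl2 and Dpysl3 in none.

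In day 3 cells 5 of the 10 genes had a log2 ratio above 1 (Sprr1a, Stmn4, Marcksl1, Gap43 and Cttn) and 0 below -1, beside 6.78% and 6.35% of 13644 genes. For 5 of the 10, at least 50% of SNT-side neurons exceeded the whole control side, beside 2.26% of all genes. In day 7 cells 5 of the 10 were above 1 (Sprr1a, Stmn4, Marcks, Basp1 and Gap43) and 0 below -1, beside 5.99% and 3.63% of 13264 genes, and 2 of the 10 met the 50% mark, beside 0.867%. Day 7 cells carry a label for sex. Within females (16 and 7 cells) the log2 ratios were 9.73 for Sprr1a, 4.21 for Stmn4, 1.23 for Gap43, 1.51 for Basp1 and 2.32 for Marcks, and within males (17 and 7 cells) they were 9.27, 3.446, 1.47, 1.77 and 2.07. Marcksl1 gave -1.40 in females, with an SNT mean of 0.662 CPM against a control mean of 3.377 CPM, and 0.25 in males, with 7.37 against 6.04 CPM, and the difference between the sexes was not tested. The other 4 genes stayed between -0.18 and 0.76 in both sexes.

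**Figure D3:**
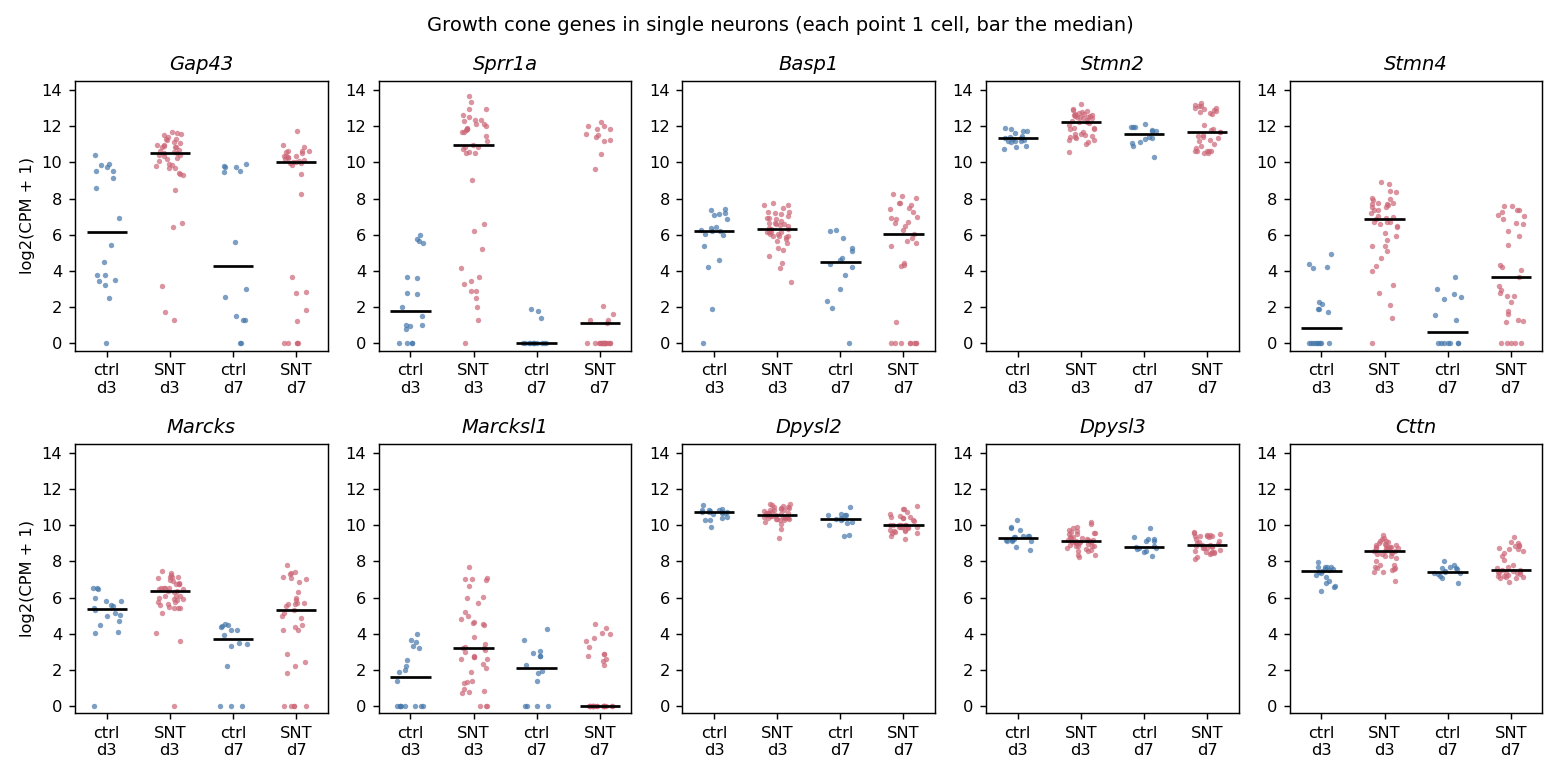
Log2(CPM + 1) of each gene in every kept neuron of the control side (ctrl, blue) and SNT side (red) at day 3 (d3) and day 7 (d7), with bars at the medians. Sprr1a falls into a low and a high set on the SNT side, while the sides overlap widely for Dpysl2 and Dpysl3, with 5 SNT-side cells below the Dpysl3 control range at day 3 and 2 at day 7.

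The genes left the control range in the same cells to unequal degrees. At day 3, 24 of 41 SNT-side cells had 5 or more of the 10 genes beyond the control range and 5 had none. At day 7, 13 of 33 had 5 or more and 8 had none. At day 3 all 21 cells with Gap43 above the control range also had Atf3 above it. At day 7, 12 of the 20 cells with Gap43 above did so, and the other 8 had no Atf3 read. All 8 were led by the marker list of peptidergic nociceptors (PEP, described below with the control side), at 1011 to 1329 CPM of Gap43, and PEP-led cells also set the control-side maximum of 977 CPM. In 3 of the 8 a second list scored within 0.25 of the first, so that their class is weakly assigned. The day 3 control-side maximum of Gap43, 1370 CPM, came from a PEP-led cell, and the next control-side cell had 978 CPM. Between these values lay PEP-led SNT-side cells of day 3 with 1230 and 1341 CPM of Gap43. Their Atf3, at 0.65 and 16.7 CPM, was within the control range. The day 3 result thus depends on that control-side cell. For Marcks 11 of 20 and for Basp1 8 of 15 day 7 cells above the range had Atf3 within it, 10 and 8 of them led by PEP, while all 12 such Stmn2 cells had Atf3 above it.

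Over SNT-side cells, correlations of log2(CPM + 1) with Atf3 are given as descriptions, since cells of a side share mice, libraries differ in depth and the sides hold several neuron classes. At day 3 (n = 41) Pearson r was 0.89 for Sprr1a, 0.88 for Cttn, 0.84 for Stmn4, 0.78 for Stmn2, 0.63 for Marcks, 0.58 for Gap43, 0.11 for Basp1 and -0.44 for Dpysl3. At day 7 (n = 33) it was 0.94 for Sprr1a, 0.90 for Cttn, 0.79 for Stmn2, 0.75 for Stmn4, 0.32 for Gap43, 0.21 for Marcks and 0.10 for Basp1. Gap43 ran with Basp1 (r = 0.81) and Marcks (r = 0.77) over the same day 7 cells, and against Nefh, the heavy neurofilament of large neurons (r = -0.66). For Gap43 these values of r were larger than that with Atf3.

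**Figure D4:**
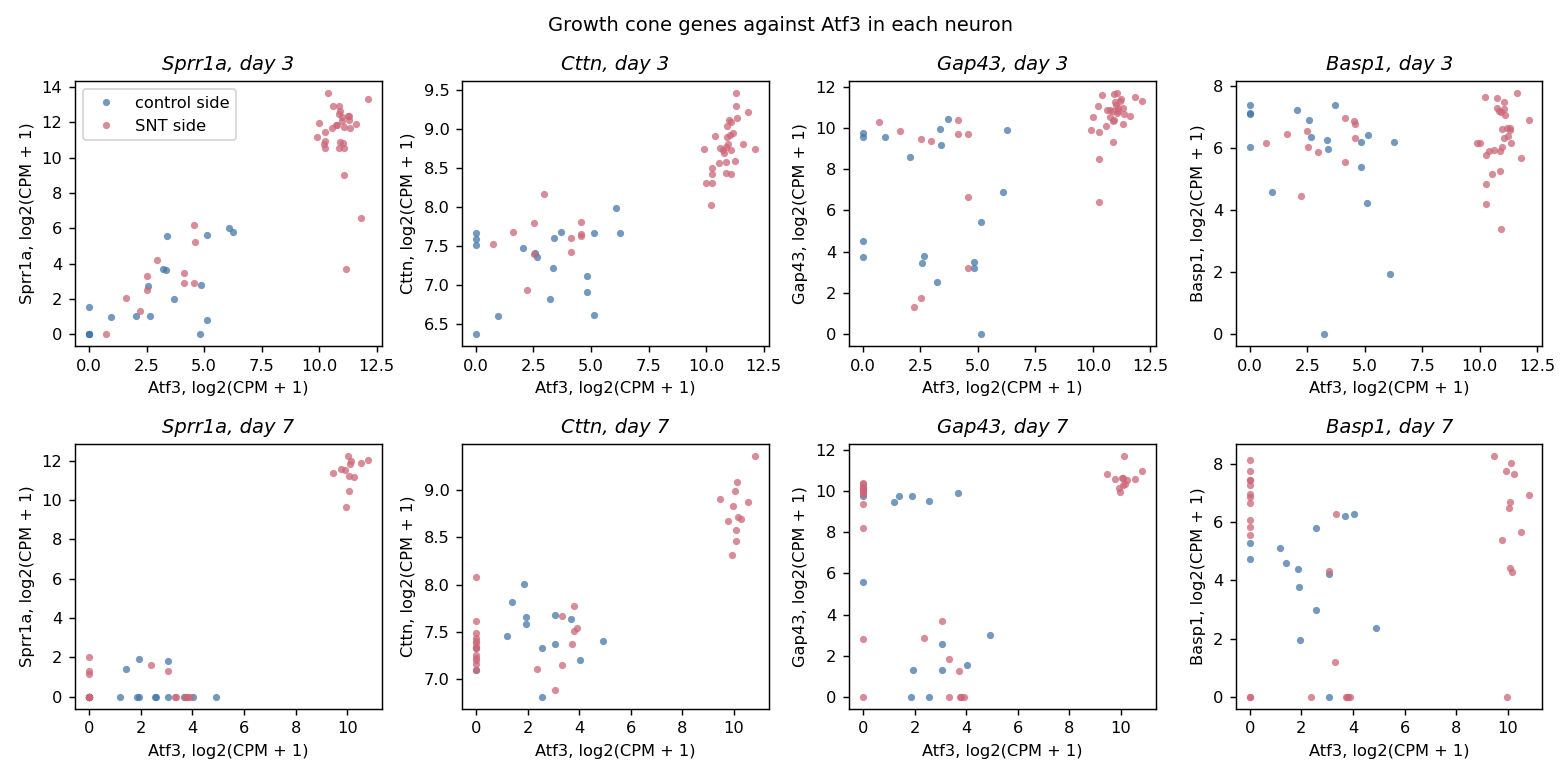
Log2(CPM + 1) of Sprr1a, Cttn, Gap43 and Basp1 against Atf3 in each kept neuron of the control side (blue) and SNT side (red) at day 3 (upper row) and day 7 (lower row). Sprr1a and Cttn are high where Atf3 is high, whereas 8 day 7 cells each of Gap43 and Basp1 exceed the control side with Atf3 at 0.

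Over the 59 kept day 3 cells and 9277 genes averaging 10 CPM or more, the genes most alike to Sprr1a by Pearson r of log2(CPM + 1) were Atf3 (0.92), Kif22 (0.89), Hn1 (0.89), Camk1 (0.87) and Csf1 (0.87). Those most alike to Gap43 were Ptprn (0.82), Maged1 (0.81), Stmn4 (0.78), Serpinb1a (0.77) and Pnp (0.77). These values pool both sides and so include the difference between them. Over the 18 control-side cells alone r with Sprr1a was 0.28 for Hn1 and 0.34 for Camk1, and over the 47 day 7 cells r with Gap43 was 0.37 for Ptprn and 0.45 for Maged1.

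Without injury the levels differed with neuron class. Control-side cells were divided by which of 4 marker lists scored highest, NP (non-peptidergic nociceptor, Mrgprd and P2rx3), PEP (peptidergic nociceptor, Calca and Tac1), LM (large myelinated, Nefh and Pvalb) and C-LTMR (C-fiber low-threshold mechanoreceptor, Th). A class cut from a score is a range and not a type, and the second list scored within 0.25 of the first in 2 of 18 cells at day 3 and 8 of 14 at day 7. At day 3 the mean Gap43 level was 942 CPM in 4 cells led by PEP (569 to 1370), 452 in 4 led by LM (10.3 to 937), 154 in 8 led by NP (8.33 to 740) and 2.39 in 2 led by C-LTMR. At day 7 it was 832 CPM in 5 cells led by PEP (707 to 977), 432 in 2 led by NP, 18.1 in 3 led by C-LTMR and 2.45 in 4 led by LM (0 to 6.90). The PEP-led day 7 cells had no Tac1 read, and the C-LTMR-led ones had at most 8.27 CPM of Th, so that these groups went without a defining marker of their list. Pvalb was at most 5.56 CPM in LM-led cells at day 3 and 6.90 CPM at day 7. Control-side Gap43 ran with Calca, which encodes CGRP, at r = 0.68 at day 3 (n = 18) and 0.83 at day 7 (n = 14), and with Stmn2 at 0.82 and 0.65.

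Stmn2, Dpysl2 and Dpysl3 had high levels in every class, and Cttn was present in every class at a lower level. Day 3 control-side means ran from 1912 to 3094 CPM for Stmn2, from 1480 to 1852 for Dpysl2, from 513 to 791 for Dpysl3 and from 105 to 178 for Cttn. Basp1 had means of 109 CPM in NP-led and 112 in PEP-led cells, beside 34.7 in LM-led and 8.80 in C-LTMR-led cells.

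**Figure D5:**
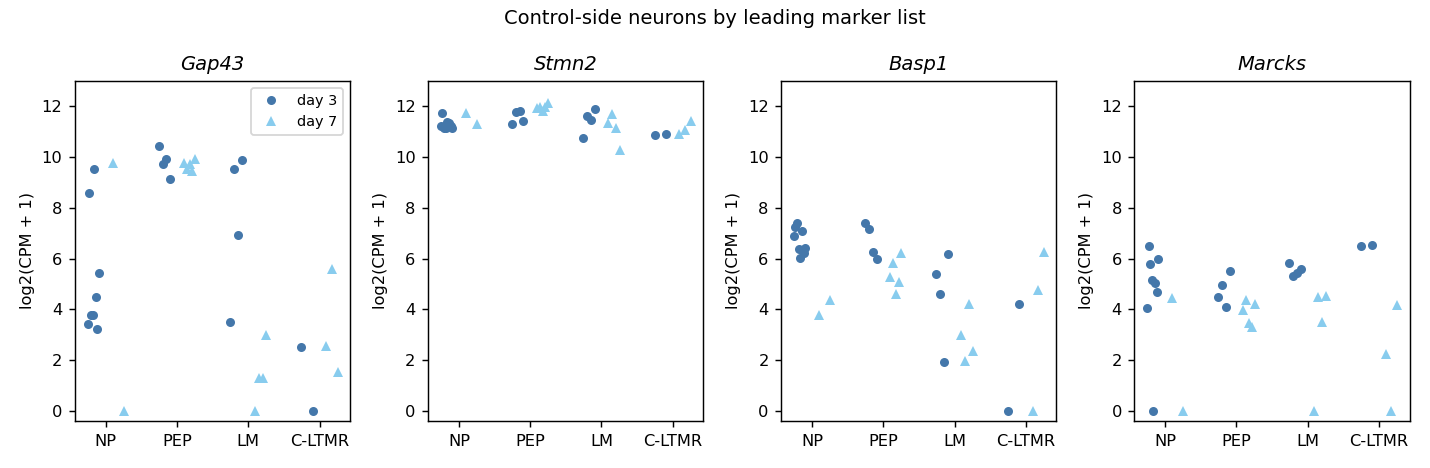
Log2(CPM + 1) of Gap43, Stmn2, Basp1 and Marcks in control-side neurons by the marker list that scored highest, at day 3 (circles) and day 7 (triangles). Gap43 is high in every PEP-led cell and low in every C-LTMR-led cell and every LM-led cell of day 7, with high and low cells among those led by NP and those led by LM at day 3, while Stmn2 is high in all classes.

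Per kilobase of the longest coding transcript, pooled control neurons held most Stmn2 (1025 ± 61.4 CPM per kilobase, SD, n = 3), then Dpysl2 (383 ± 85.8), Dpysl3 (106 ± 12.1), Gap43 (70.1 ± 11.8), Cttn (56.6 ± 3.57), Basp1 (27.7 ± 4.02), Marcks (13.7 ± 6.16), Sprr1a (7.45 ± 5.20), Marcksl1 (6.19 ± 2.66) and Stmn4 (2.67 ± 1.68). Mean ± SD overlapped between Gap43 and Cttn and between each neighbouring pair of the last 4. In pooled SNT neurons Stmn2 was highest (2455 ± 53.1), followed by Sprr1a (1739 ± 152) and Gap43 (937 ± 97.7).

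Other growth cone genes were counted by function in pooled neurons. Beside the 8.83% of all genes called higher, of 32 actin regulators 5 were called higher and 0 lower, led by Fscn1, the filopodial bundler fascin (log2 change 4.02, from 12.8 ± 3.387 to 192 ± 15.4 CPM, SD, n = 3), and by Myo10, a filopodial motor (2.50). Of 5 CRMP and stathmin relatives only Crmp1 was called higher (1.19), and of 15 microtubule regulators only Map2 (1.46), a count of 1 in 15 that is no larger a share than that of all genes. Of 12 membrane and adhesion proteins 2 were called higher, Cntn2 (1.52) and Rtn1 (1.27), and 3 lower (15.9% of all genes were called in either direction), Nrn1, the outgrowth factor neuritin (-2.67), Gpm6a (-2.50) and Gpm6b (-1.43), which was named after its value was seen. In day 3 cells the log2 ratio was 2.67 for Fscn1, 2.82 for Myo10, 1.18 for Crmp1 and -1.54 for Nrn1. It was 0.41 for Map2, 0.70 for Cntn2, 0.08 for Rtn1, -0.89 for Gpm6a and 0.40 for Gpm6b. In day 7 cells it was 1.76 for Fscn1, 1.95 for Myo10, 0.15 for Crmp1 and -0.48 for Nrn1. There Map2 had 0.91, Cntn2 0.0008, Rtn1 0.55, Gpm6a -1.96 and Gpm6b -0.71. The lower glial and higher neuronal marker sums of the pooled SNT libraries stand beside the pooled values, and their part in them was not tested. The median log2 changes were 0.35 for actin regulators, 0.58 for CRMP and stathmin relatives, 0.55 for microtubule regulators and 0.03 for membrane and adhesion proteins, beside the 0.02 of all genes.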

How the data were processed

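RNA of single and pooled DRG neurons was sequenced. Per the submitters' processing notes, reads were handled with CASAVA 1.8.2, Bowtie2 and RSEM on mm9. The authors deposited tables named TPM, but the values are expected counts: totals differ between libraries and whole numbers make up between 60.7% and 93.6% of a library's nonzero entries. The authors removed 11 outlier cells, all of day 3, in 1 of 2 tables, and 106 cells were kept. Libraries had no molecular identifiers, so counting error understates the true error.

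CPM is the value divided by the library total, times 1e6. Pooled libraries were rounded and tested with edgeR 4.0.16 (R 4.3.3; quasi-likelihood, TMM, mean of at least 1 CPM, prior count 0.125, library sizes from all counts, Benjamini-Hochberg); SE is the log2 change over the root of F. Alternatives used limma 3.58.1, DESeq2 1.42.0, other scalings, filters and left-out libraries. Cells (pandas 2.3.3) were described by medians, ranges and log2 ratios of mean CPM + 1. Named genes were the 10 members, Atf3, class markers, the leading called genes of each list and the 5 genes most alike to Gap43 and Sprr1a. Members and lists were chosen with earlier results of these data known. The fit was tested on simulated data. Library numbers did not pair the sides. Transcript lengths came from GENCODE on GRCm38, whose gene coordinates were not used.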

Additional observations from a re-analysis of the deposited data

Results flagged for a closer look

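The 11 day 3 cells that the authors set aside as outliers (7 SNT-side and 4 control-side) entered no main comparison. They were added back only in an alternative setting for day 3 cells. Their glial marker sums were 40887 to 100334 CPM, far above kept cells, and their summed neuronal markers 251 to 3704 CPM. In them Gap43, Basp1, Stmn2 and Marcks each lay above every excluded control-side cell in 4 of 7 SNT-side cells, and Cttn in 6 of 7. The highest excluded control-side cells had 103, 12.9, 612, 360 and 147 CPM in that order. The margins were slight for Stmn2 and Marcks, with excluded SNT-side medians of 646 and 374 CPM. Sprr1a, Stmn4 and Marcksl1 did so in 3 of 7 cells, Dpysl3 in 2 and Dpysl2 in 0. The share of all genes with such counts was not computed, so no result about the 10 genes is drawn from them. Marcks reached 712 CPM in 1 excluded SNT-side cell, apart from the next at 442.

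In groups of 4 to 10 cells, a cell far from the others was found for 3 further sets of values at day 7. Stmn4 was 11.8 CPM in 1 control-side female cell, with the next at 5.00, Sprr1a was 2.78 CPM in 1 control-side male cell, with the others at 0, and Marcksl1 was 18.0 CPM in 1 control-side male cell, with the next at 7.38. In all 4 of 40 sets of values were so marked. The limits mark about 1 in 20 sets of normally distributed values, and the rate for skewed CPM with zeros was not measured. The Sprr1a mark was certain, since every other cell of its set was at 0.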

How the results depend on the processing

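The number of members called in pooled neurons was 5 under every alternative, and all genes called ranged from 1649 with a minimum of 10 CPM to 2243 with library size alone. Library sizes summed over the genes tested, chosen after seeing the data, gave 2157 calls beside 2154. DESeq2 gave 1761 calls. Marcksl1 could not be tested at a minimum of 10 CPM. Only members that were not called changed sign: Dpysl3 to -0.035 with library size alone and -0.032 with limma, and Marcks, which ran from -0.24 to 0.36 when 1 library was left out. The cause was not tested. The library numbers did not pair the sides (correlations of deviations 0.13, 0.01 and -0.02), and with a replicate block 5 members and 2008 genes were called. In cells, the count of members above a log2 ratio of 1 stayed at 5 on each day under every setting. It did so also with each cell left out in turn (added after seeing the data). The members counted differed between days, and in the main setting only Sprr1a, Stmn4 and Gap43 passed on both. The median over cells in place of the mean moved Gap43 from 1.96 to 4.16 at day 3 and from 1.36 to 5.23 at day 7, Sprr1a to 9.15 and 1.13, Stmn4 to 5.76 and 2.89, Marcksl1 to 1.54 and -2.12, and at day 7 Marcks to 1.59. In day 7 control-side cells, 5 members had their highest mean in PEP-led cells, and 2 did when cells near a second list were left out, which left 6 cells. Low counts limit Sprr1a, Stmn4 and Marcksl1 on the control side.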
